A study of Solanum lycopersicum with 28 samples.

Results

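Distal H3K27ac peaks were the stretches of tomato leaf chromatin enriched for acetylation of lysine 27 of histone H3 that lay far from the other marks of gene starts and of silenced genes. They were chosen by peak positions alone, as the peaks of the H3K27ac list on the 12 chromosomes with no peak of RNA polymerase II (Pol2), H3K4me3 or H3K27me3 overlapping them or within 2000 bp of either end. Of 106737 H3K27ac peaks on the chromosomes, 3976 met these conditions, which was 3.73% (95% Wilson interval 3.61 to 3.84). The remaining 102761 are called the other H3K27ac peaks. No annotation of the genome version behind the peak lists was used here, so that distal means far from deposited peaks and not far from annotated genes, and no gene name, sequence or distance to a gene is given.

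The data were chromatin immunoprecipitation sequencing (ChIP-seq) peak lists, in which an antibody recovers the DNA wound around histones that carry a given modification. All libraries came from leaves of 4-week-old wild type tomato (Solanum lycopersicum) of the cultivar M82, grown at 24 °C with 16 h of light, and each was built from 10 ng of DNA and read for 75 bp. There were 27 antibody targets, namely 26 histone modifications and Pol2, and an Input library of chromatin without immunoprecipitation. Each target had 1 library per the labels, hence no result below was tested against the spread between plants, and whole leaves mix several cell types. The intervals cover counting error only. The lists hold no read totals, so the depth of the libraries is unknown.

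Acetylation removes the positive charge of a lysine and is laid down at H3K27 by acetyltransferases of the CBP/p300 type. In animals, H3K27ac marks active promoters and also active enhancers, which are stretches of DNA that raise transcription of a gene from a distance and typically carry H3K4me1 with little H3K4me3. In plants, H3K27ac lies mostly at the 5′ ends of transcribed genes and H3K4me1 mostly along gene bodies. H3K4me3 and Pol2 mark gene starts in use, and H3K27me3 is the mark of Polycomb silencing. H3K9me2 and H3K27me1 are the classical plant marks of constitutive heterochromatin, the compact, transposon-rich chromatin around the centromeres.

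The 3 lists that chose the peaks removed them unequally. A Pol2 peak lay within 2000 bp of 77858 H3K27ac peaks, an H3K4me3 peak near 72655 and an H3K27me3 peak near 84295. The H3K27me3 list alone removed 11117 peaks, Pol2 alone 3773 and H3K4me3 alone 1891. For 3046 distal peaks (76.6%) the nearest of these peaks was one of H3K27me3, for 500 (12.6%) one of H3K4me3 and for 430 (10.8%) one of Pol2. The median distance to the nearest was 7850 bp, and 25% of the distal peaks lay at least 22801 bp away. Just inside the limit, 455 distal peaks lay 2001 to 2500 bp away and had a median fold of 1.88, and just outside it 802 peaks lay 1501 to 2000 bp away with a median fold of 1.87. Their median pileups were 35.0 and 42.5 reads, and H3K4me1 overlapped 42.6% and 52.4% of them. These counts describe the selection and were not tested.

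Bases more than 2000 bp from every Pol2, H3K4me3 and H3K27me3 peak made up 502 Mb, or 62.6% of the 802 Mb of chromosome. The distal peaks were sparse there, at 7.92 per Mb, against 343 of the other H3K27ac peaks per Mb in the rest of the chromosomes. They covered 1323 kb in all.

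Distal peaks were weak and short. Fold enrichment, the ratio of the read pileup at the summit to the local background, had a median of 2.06 among distal peaks (interquartile range 1.82 to 2.45, highest 7.85) and of 2.31 among the others (1.89 to 3.22, highest 15.0). Median width was 238 bp against 415 bp, and 136 distal peaks (3.42%) exceeded 1000 bp, against 15.6% of the others. The median −log10 p-value was 4.09 against 7.81. The pileup and the background, which were solved from the deposited fold and p-value, had medians of 28 and 11.6 reads at distal peaks and of 57 and 22.4 reads at the others. At 2745 distal peaks (69.0%) the background stood at 11.6 reads, against 7.80% of the others. This level was percentile 1 of the solved backgrounds over all H3K27ac peaks. A q-value under 0.05 was reached by 3485 distal peaks (87.7%), against 95.3% of all H3K27ac peaks. The 13483 peaks that lay within 2000 bp of a Pol2, H3K4me3 or H3K27me3 peak without overlapping it were of like width (median 247 bp) and had a median fold of 1.90.

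Input peaks overlapped 1479 distal peaks, or 37.2% (95% interval 35.7 to 38.7), and 55.7% of all H3K27ac peaks. The Input list was large, with 344406 mostly weak peaks, of which 1.80% reached a q-value under 0.05. Input peaks of that kind overlapped 50 distal peaks (1.26%) and 3.08% of the others. The summit lay inside an Input peak at 667 distal peaks (16.8%), against 24.5% of all H3K27ac peaks, whereas Input peaks covered 4.03% of the bases far from Pol2, H3K4me3 and H3K27me3 peaks. Distal summits thus stood in Input peaks 4.16 times as often as the cover of these bases. Among distal peaks with an Input overlap, the Input fold was the higher of the pair in 727 (49.2%), against 27.9% among the others with an overlap. The 1479 were wider than the 2497 distal peaks without an Input overlap (median 306 bp against 218 bp) and had a slightly higher median fold (2.22 against 2.06). The part of the Input signal in the H3K27ac signal was not tested, and none of the sources at hand says whether the H3K27ac peaks were called against the Input.

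A first comparison asked which other modifications shared these places. For each of the 23 lists that the selection did not use, the share of distal peaks overlapped by at least 1 bp was set against that of the other H3K27ac peaks, as a log2 odds ratio that is negative where distal peaks are overlapped less often.

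The other acetylations were found at fewer distal peaks than at the other H3K27ac peaks in all 12 lists, on each of the 12 chromosomes. H3K18ac, which the same CBP/p300 enzymes lay down in animals, was the most frequent companion. It overlapped 1932 distal peaks, or 48.6% (47.0 to 50.1), against 76.8% of all H3K27ac peaks. H3K4ac followed at 36.2% against 50.4% of all, and H3K36ac at 29.3% against 56.5%. These 3 lists also came closest to the other H3K27ac peaks, with log2 odds ratios of -1.90 for H3K18ac, -0.87 for H3K4ac and -1.71 for H3K36ac. H3K4ac was the exception to the direction when only peaks of 176 to 379 bp were compared, the middle 50% of distal widths, where it overlapped 29.7% of distal peaks and 26.9% of the others. Of the 13483 peaks within 2000 bp of a Pol2, H3K4me3 or H3K27me3 peak without overlap, H3K18ac was at 46.4%, H3K36ac at 27.7% and H3K4ac at 20.2%. These 3 lay below their distal shares. The other acetylations lay above theirs, among them H3K56ac (19.3%), H4K5ac (30.9%) and H3K9ac (13.7%).

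Acetylations of the H4 tail were scarcer. H4K5ac overlapped 18.3% of distal peaks against 64.1% of all H3K27ac peaks, H4K8ac 15.2% against 61.6%, H4K16ac 11.3% against 57.4% and H4K12ac 8.53% against 52.0%. H4K5ac peaks with a q-value under 0.05, which were 51.1% of that list, overlapped 71 distal peaks (1.79%) and 34.3% of the others. Within H3, H3K56ac, a lysine in the histone core, overlapped 16.1% of distal peaks against 50.2% of all. H3K14ac overlapped 13.9% against 52.0%, and H3K79ac 11.3% against 50.6%.

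The scarcest acetylations were H3K9ac and H4K20ac. H3K9ac, an acetylation of active promoters, overlapped 50 distal peaks, or 1.26% (0.955 to 1.65), against 52.7% of all H3K27ac peaks, with a log2 odds ratio of -6.56. H4K20ac overlapped 77, or 1.94%, against 55.2% of all, with a log2 odds ratio of -6.07. Both lists had few peaks of their own far from Pol2, H3K4me3 and H3K27me3, with 101 such peaks for H3K9ac (0.129% of its list) and 128 for H4K20ac (0.188%). Of the 50 distal peaks with H3K9ac, 92.0% also overlapped H3K18ac, 88.0% H4K8ac and 84.0% H3K14ac. The labels give H4K20ac and H4K12ac antibodies with the same catalogue number, although their lists differ.

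Among the methylations of euchromatin, H3K4me1 overlapped 629 distal peaks, or 15.8% (14.7 to 17.0), against 37.7% of all H3K27ac peaks. Its log2 odds ratio of -1.74 varied widely with the settings, and was -0.15 for peaks with a pileup above 36, -0.42 by summit (15.1% against 19.2% of the others), -0.51 with a distance of 1000 bp and -3.34 with 5000 bp. H3K4me2 overlapped 22.8% against 56.3% of all. H3K4me2 peaks with a q-value under 0.05, which were 39.8% of that list, overlapped 5.94% of distal peaks and 45.5% of the others. H3K4me1 and H3K4me2 were found together at 430 distal peaks (10.8% against 30.6% of all), and neither was at 2872 (72.2% against 36.6%). The combination typical of enhancers in animals is H3K27ac with H3K4me1 and without H3K4me3. The selection itself excluded H3K4me3, so its share among distal peaks was that of H3K4me1, 15.8%. Of the 13483 peaks within 2000 bp of a Pol2, H3K4me3 or H3K27me3 peak without overlap, H3K4me1 was at 47.6%. H3K36me3, a mark of transcribed gene bodies, overlapped 23.5% of distal peaks and 23.5% of all. Its log2 odds ratio was 0.01. The ratio stayed near that value by summit, with 50% of the peak covered (0.0018) and with a pileup above 36 (-0.04). Among peaks of 176 to 379 bp, however, H3K36me3 was at 24.5% of distal peaks and 10.98% of the others. Without an Input overlap it was at 26.4% and 17.0%. With a q-value under 0.05 in every list its log2 odds ratio was -2.58. H3K23me3 overlapped 10.7% against 25.1% of all, but 10.2% against 9.50% of the others among peaks of 176 to 379 bp. H3K27me2, which the study counts as facultative heterochromatin, overlapped 66.3% against 67.8% of all. These were mostly weak peaks, since 0.404% of the H3K27me2 list had a q-value under 0.05. Such peaks overlapped 1 distal peak (0.0252%) and 1.51% of the others. H3K27me2 and H3K36me3 were each more frequent at distal peaks on 4 of the 12 chromosomes.

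The 6 lists of constitutive heterochromatin overlapped distal peaks more often than the other H3K27ac peaks, on each of the 12 chromosomes. H3K27me1 overlapped 2964 distal peaks, or 74.5% (73.2 to 75.9), against 30.9% of all. H3K23me1 overlapped 53.8% against 20%, H3K14me1 51.3% against 16.5%, H3K56me1 48.9% against 14.4% and H3K56me2 41.5% against 13.3%. Their log2 odds ratios lay between 2.34 and 2.83. H3K9me2 overlapped 580 distal peaks, or 14.6% (13.5 to 15.7), against 1.05% of all, with a log2 odds ratio of 5.03. Of the 1116 H3K27ac peaks in an H3K9me2 peak, 580 were therefore distal.

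**Figure D1:**
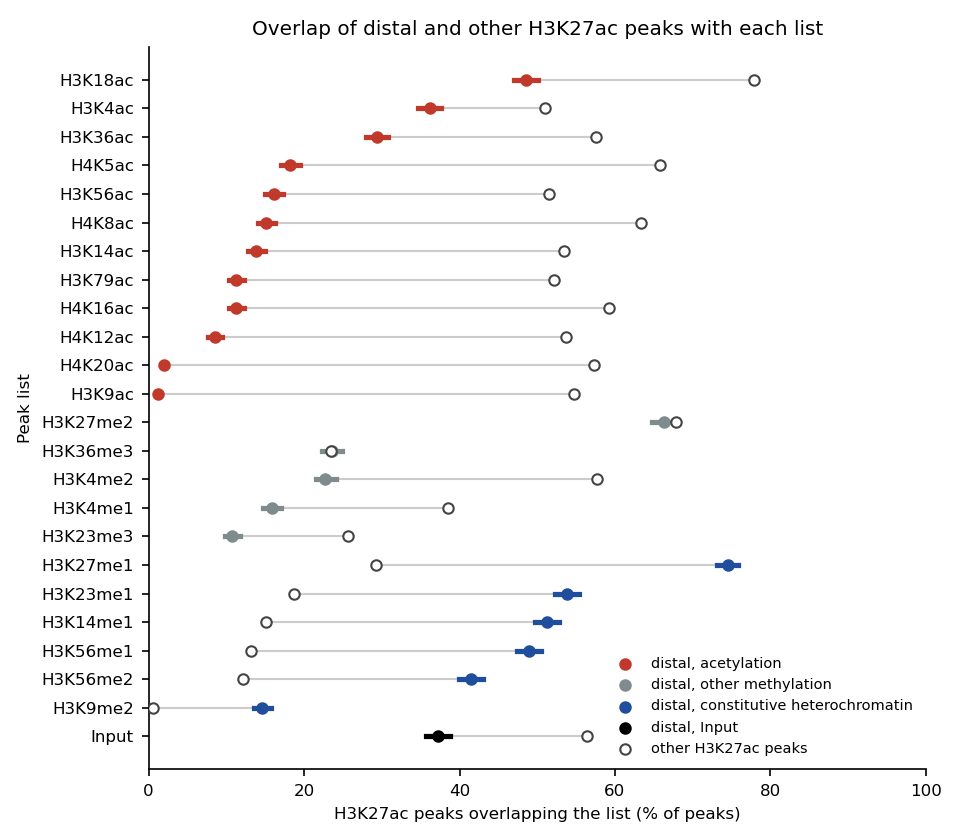
Share of H3K27ac peaks overlapped by each of 23 peak lists and the Input (x axis, percent of peaks), with filled points for the 3976 distal peaks, thick bars for their 95% Wilson intervals and open points for the 102761 other peaks. The 12 acetylation lists lie lower at distal peaks and the 6 constitutive heterochromatin lists lie higher, while H3K36me3 is at 23.5% in both groups at this setting.

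The mean log2 odds ratio was -3.25 ± 1.65 over the 12 acetylation lists and 2.96 ± 1.03 over the 6 constitutive heterochromatin lists (SD over lists), and the groups did not overlap. The difference was -6.22. Against all 11 methylation lists outside the selection, whose mean was 1.11 ± 2.34, it was -4.36. Both differences are given as a description and no p-value is read from them, since the selection removed peaks near Pol2 and H3K4me3, where most acetylation peaks lay, and each list is 1 library. All 6 constitutive heterochromatin lists are in the broad peak format and 11 of the 12 acetylation lists in the narrow format, so class and format cannot be told apart.

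The odds ratio also carries the places where each list has its peaks. Of their own peaks, the acetylation lists had between 0.129% (H3K9ac) and 32.0% (H3K4ac) farther than 2000 bp from Pol2, H3K4me3 and H3K27me3 peaks. The constitutive heterochromatin lists had between 71.0% (H3K27me1) and 81.0% (H3K56me2) there. A second reading therefore set distal peaks against their own surroundings, as the share of distal summits inside a list over the share of these far bases that the list covers.

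Against their surroundings the order of the classes was the opposite. The 12 acetylation lists together covered 2.11% of the far bases and held 57.8% of the distal summits. Each of the 12 held a larger share of the summits than of the bases, from 15.0 times (H3K4ac) to 181 times (H4K20ac). H4K20ac held only 1.36% of distal summits and 0.00749% of the far bases, where its list had 128 peaks. H3K9ac held 0.880% and 0.00812%, with 101 such peaks, so both ratios rest on few peaks. H3K18ac held 43.6% of distal summits (72.4% of all H3K27ac summits) and 0.347% of the far bases. H3K36ac held 24.3% of distal summits (51.5% of all) and 0.143% of the far bases.

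The 6 constitutive heterochromatin lists together covered 89.8% of the far bases and held 90.4% of the distal summits. A distal summit thus lay in any of them about as often as their cover. H3K9me2 covered 64.3% of the far bases and held 13% of distal summits, against 0.811% of all H3K27ac summits. Its ratio of 0.202 was the lowest of the 23 lists. H3K56me2 was at 0.576, and H3K56me1, H3K14me1 and H3K23me1 lay between 0.830 and 0.930. Of the 6, H3K27me1 alone stood above its cover, with 67.3% of distal summits (24.3% of all) in 44.9% of the far bases, a ratio of 1.5. H3K4me1 held 5.02 times and H3K4me2 6.46 times its cover, and H3K36me3 0.766 times. For comparison the Input held 4.16 times its cover, which the 12 acetylation lists and both H3K4 methylations exceeded. No test was made of these ratios.

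**Figure D2:**
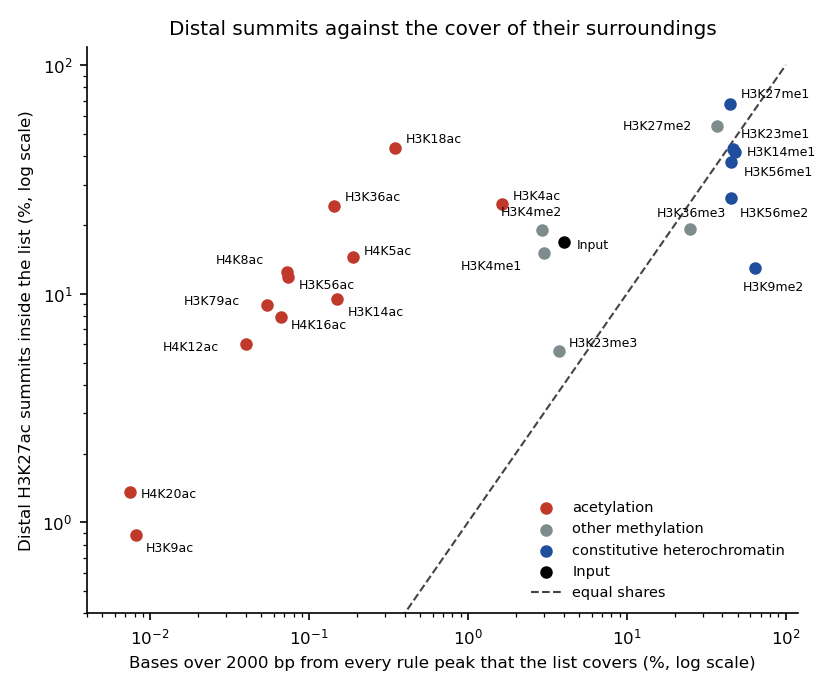
Share of the 3976 distal H3K27ac summits inside each list (y axis, percent, log scale) against the share of the bases over 2000 bp from every Pol2, H3K4me3 and H3K27me3 peak that the list covers (x axis, percent, log scale), 1 point per list. Every acetylation list lies above the dashed line of equal shares, and of the constitutive heterochromatin lists only H3K27me1 does.

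The constitutive heterochromatin peaks were also weak. In 5 of these lists, H3K9me2 apart, between 0.00496% and 0.0125% of the peaks had a q-value under 0.05. Such peaks overlapped 7 distal peaks (0.176%) and 0.0422% of all H3K27ac peaks. H3K9me2 was stronger, with 49.2% of its peaks at that level, and those overlapped 398 distal peaks (10.0% against 0.679% of all H3K27ac peaks). Where the lists met, the highest fold among the overlapping peaks was taken. Distal peaks were narrower than the others (median 238 bp against 415 bp), and the part of width was not tested. For 11 of the 12 acetylations the median of these folds was lower at distal peaks. H3K18ac was the exception, with a median fold of 3.16 at distal peaks (interquartile range 2.46 to 3.98) and of 2.71 at the others (2.12 to 3.65). H3K9ac showed the widest gap, with a median fold of 2.13 at its 50 distal peaks and 6.0 at the others. The H3K4me1 peaks over distal sites had a median fold of 4.21, against 3.64 at the others.

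Distal peaks carried fewer of the other acetylations than the other H3K27ac peaks did. None of the 12 other acetylation lists overlapped 1421 distal peaks, or 35.7% (34.3 to 37.2), against 7.05% of all H3K27ac peaks. At least 6 overlapped 457 (11.5%), against 58.1% of all, and all 12 overlapped 5 (0.126% against 22.3% of all). The 1421 peaks without another acetylation were narrow and low, with a median width of 186 bp, a median fold of 1.90 and a median pileup of 24.0 reads. H3K9me2 overlapped 33.2% of them, H3K14me1 71.1% and the Input 32.1%. The 457 with at least 6 had a median width of 566 bp and a median fold of 2.85. H3K9me2 overlapped 1.97% of these, H3K14me1 37.6% and the Input 57.3%. H3K27me1 was at 64.6% of the 1421 and at 84.7% of the 457. Width moved with every one of these shares, and its part was not tested.

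The pairs of acetylations with large overlaps among distal peaks were more frequent over all H3K27ac peaks. H3K18ac and H3K4ac shared 1161 distal peaks (29.2% against 45.5% of all H3K27ac peaks), which was 60.1% of the distal peaks with H3K18ac and 80.7% of those with H3K4ac. H3K56ac shared 560 distal peaks with H3K36ac (14.1% against 46.1% of all), 87.5% of its own and 48.0% of those with H3K36ac. H3K79ac and H4K8ac shared 348 (8.75% against 47.8% of all), or 77.5% and 57.7%. H3K18ac was combined with H3K27me1 as well, at 83.9% of the distal peaks with H3K18ac, above the 74.5% over all distal peaks, and with H3K9me2 at 2.33% of them, below the 14.6% over all.

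At least 1 constitutive heterochromatin list overlapped 3789 distal peaks (95.3%), against 45.8% of all H3K27ac peaks. Both another acetylation and a constitutive heterochromatin list were found at 2413 distal peaks (60.7% against 40.4% of all). Another acetylation without any constitutive heterochromatin list was found at 142 (3.57% against 52.6%). A stricter set, with a q-value under 0.05, no Input overlap and at least 3 other acetylations, held 624 distal peaks (15.7%), against 29.0% of all H3K27ac peaks. Of these 624, 50 overlapped no constitutive heterochromatin list, which was 1.26% of the distal peaks against 18.1% of all H3K27ac peaks for the same call.

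**Figure D3:**
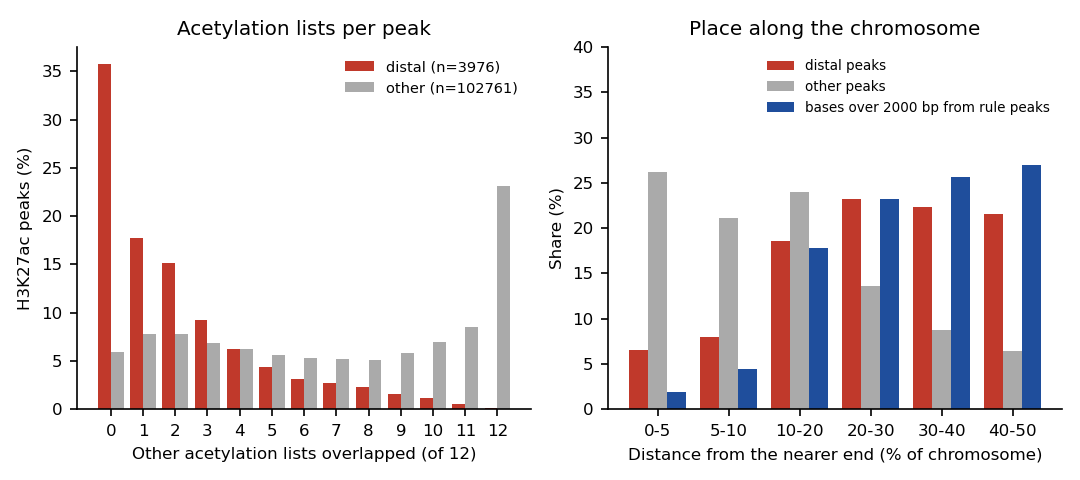
Left, share of distal and other H3K27ac peaks (y axis, percent) by the number of the 12 other acetylation lists that overlap them. Right, share of distal peaks, of other peaks and of the bases over 2000 bp from Pol2, H3K4me3 and H3K27me3 peaks (y axis, percent) by distance from the nearer chromosome end in percent of chromosome length, where the first pair of zones is 5% wide and the rest are 10% wide. Distal peaks are most often in 0 lists (35.7%), and 14.4% of them lie in the outer 10% of a chromosome at each end against 47.3% of the others.

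The distal peaks that lay in H3K9me2 differed from the rest in their company. Of these 580 peaks, 81.4% had no other acetylation, against 27.9% of the 3396 outside H3K9me2. H3K18ac overlapped 7.76% of them against 55.6%, H3K4ac 13.1% against 40.1%, and H3K36ac 5.17% against 33.5%. H3K14me1 overlapped 85.7% against 45.4%, H3K56me2 75.5% against 35.7% and H3K36me3 50.3% against 19.0%. They were narrower (median 181 bp against 254 bp) and slightly lower (median fold 1.98 against 2.14). The Input overlapped 30.5% of them and 38.3% of the rest. In all, 108 distal peaks lay in H3K9me2 and in another acetylation list (2.72% against 0.3% of all H3K27ac peaks).

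Within the distal set, the lists varied with the distance to the nearest Pol2, H3K4me3 or H3K27me3 peak. H3K4me1 overlapped 39.4% of the 746 distal peaks at 2001 to 3000 bp, 27.7% at 3001 to 5000 bp, 16.3% at 5001 to 10000 bp, 2.64% at 10001 to 20000 bp and none of the 1108 beyond 20000 bp. H3K4me2 went from 33.5% in the nearest bin to 14.4% in the farthest and H4K5ac from 27.9% to 11.6%. H3K18ac ran the other way, from 37.5% to 54.9%, as did H3K4ac from 24.4% to 44.0%. H3K27me1 went from 68.5% to 79.8% and H3K9me2 from 8.18% to 17.9%, whereas H3K14me1 went from 58.7% to 47.1%. The Input changed little, from 34.7% to 38.2%, and median width lay between 227.5 bp and 250.5 bp in these 5 bins. The median background was 14.1 reads in the nearest bin and 11.6 reads in each farther bin.

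H3K4me1 was thus most frequent at the distal peaks nearest the limit. Of the 629 distal peaks with H3K4me1, 68.4% also overlapped H3K4me2 and 61.7% H3K36me3, and 23.1% overlapped H3K18ac. Over all distal peaks the same lists were at 22.8%, 23.5% and 48.6%. H3K9me2 overlapped 0.636% of the distal peaks with H3K4me1.

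**Figure D4:**
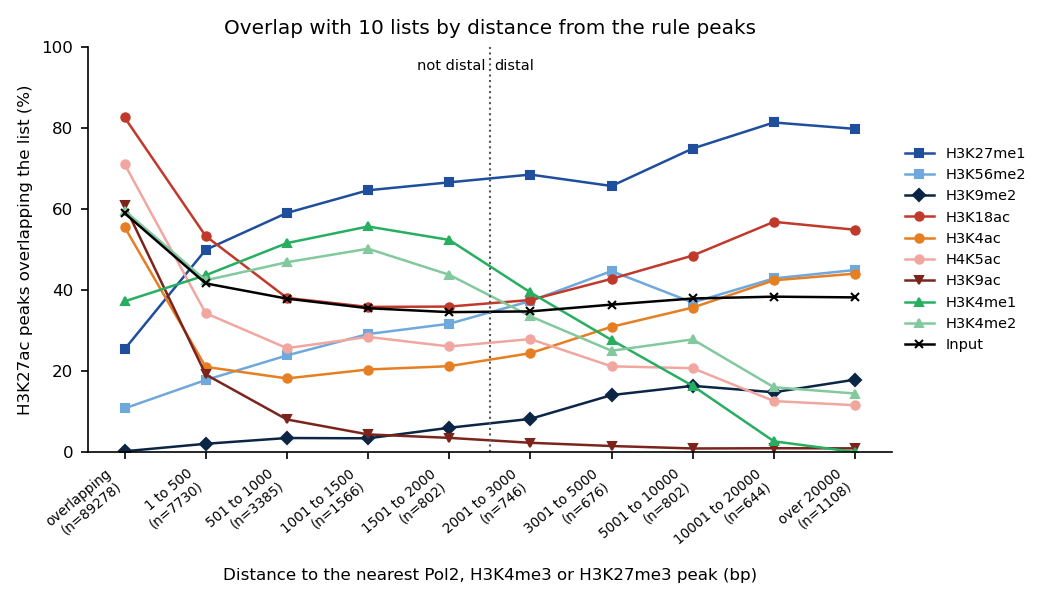
Share of H3K27ac peaks overlapped by 10 lists (y axis, percent) in bins of distance to the nearest Pol2, H3K4me3 or H3K27me3 peak (x axis, bp, with the number of peaks), where the dotted line is the limit of 2000 bp. Among distal peaks H3K4me1 drops from 39.4% to 0%, while H3K18ac goes from 37.5% to 54.9% and the Input stays between 34.7% and 38.4%.

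The acetylation lists also varied with the strength of the H3K27ac peak. Distal peaks were divided into 4 bins of −log10 p-value, from the weakest 1096 to the strongest 914, and the other H3K27ac peaks were cut at the same values. H3K18ac overlapped 22.5% of the weakest distal peaks and 85.9% of the strongest, against 52.9% and 88.3% of the others. H3K4ac went from 16.7% to 68.7%, against 17.3% to 69.7%. H3K36ac went from 8.03% to 68.2%, against 18.3% to 78.2%. In the strongest bin H4K5ac stayed at 35.9% against 80.5%, H3K9ac at 2.63% against 66.5% and H4K20ac at 6.24% against 76.6%. That bin has no upper limit and held 60841 of the others. The −log10 p-value reached 64.3 at distal peaks and 177.6 at the others, so strength was not matched within it. H3K9me2 went from 24.0% to 4.92% of distal peaks, against 1.62% to 0.238% of the others. H3K27me1 went from 70.3% to 82.3%, against 31.6% to 28.5%, and H3K4me1 from 16.9% to 13.8%, against 27.2% to 46.3%. Another acetylation was missing at 60.1% of the weakest distal peaks and at 5.80% of the strongest, a share not computed by bin for the others. Input overlap went from 30.4% to 52.1% of distal peaks, against 32.7% to 69.4% of the others. Median width went from 191 bp to 502 bp, against 202 bp to 691 bp. Their part in these trends was not tested.

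**Figure D5:**
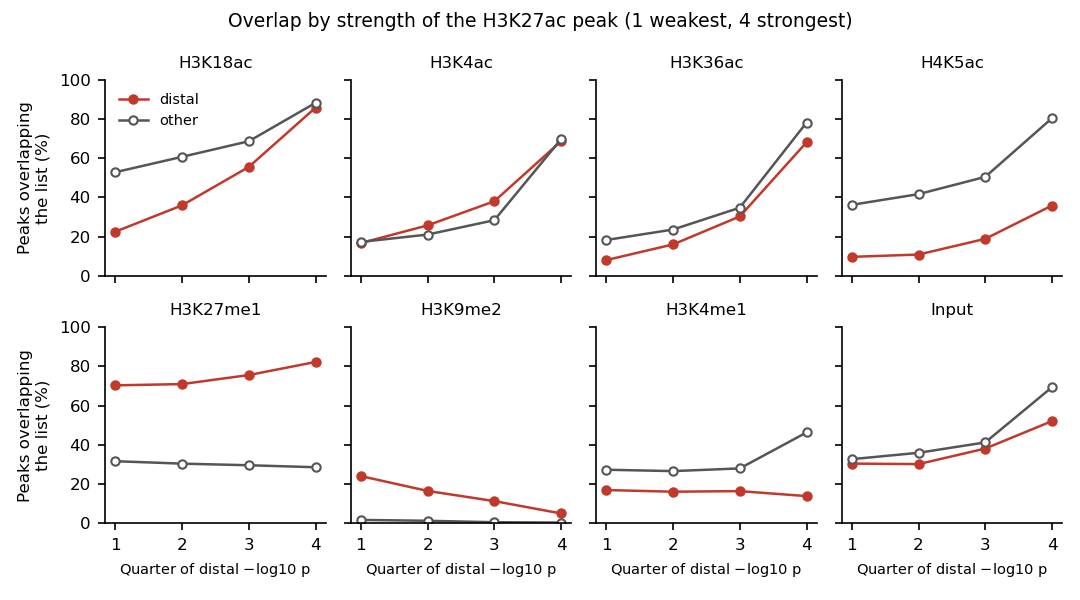
Share of peaks overlapped by 8 lists (y axis, percent) in 4 bins of H3K27ac −log10 p-value from the weakest (1) to the strongest (4), with filled points for distal and open points for other H3K27ac peaks cut at the same values. In the strongest bin, which has no upper limit, H3K18ac is at 85.9% and 88.3%, H3K4ac at 68.7% and 69.7%, and H4K5ac at 35.9% and 80.5%.

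Along the chromosomes, distal peaks lay inward. The outer 10% at each end held 573 of them, or 14.4% (13.4 to 15.5), and 47.3% of the others. Far bases were scarce at the ends, so that per Mb of them the distal peaks were densest in the outer 5%, at 26.5 per Mb, and thinned to 6.33 per Mb in the innermost zone. H3K4me1 overlapped 74.4% of the distal peaks in the outer 5% and 7.00% in the innermost zone, while H3K18ac went from 28.3% to 52.9%, H3K4ac from 21.3% to 43.1% and H3K9me2 from 5.81% to 19.8%. The share with an Input overlap lay between 34.6% and 39.3% in the 6 zones. Chromosome 1 had the most distal peaks, with 593 (4.49% of its H3K27ac peaks), and chromosome 6 the fewest, with 183 (2.08%).

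Distances between distal peaks were uneven. The nearest other distal peak was within 2000 bp for 2224 of them (55.9%), with a median of 838 bp, although 1289 (32.4%) had none within 20000 bp. Any other H3K27ac peak lay within 2000 bp of 63.7% of distal peaks (median 637 bp) and of 87.2% of the others (median 361 bp). Joined where gaps were at most 5000 bp, they formed 2492 groups, of which 1600 were single peaks and 892 held the remaining 2376 peaks (59.8%). The largest group had 17 peaks over 21441 bp of chromosome 11, at chr11:1686055-1707495. Its folds ran from 1.42 to 2.28, 4 of the 17 peaks overlapped the Input, and 13 overlapped H3K27me1 and none H3K9me2. Every share, odds ratio and interval counted each peak singly, also where peaks lay this close together. The intervals over peaks therefore do not allow for the grouping.

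In the strongest of the 4 bins the median number of other acetylations was 4 of 12, and the peaks of highest fold are given next. Coordinates are those of version 1 of the M82 genome, counted from 1. Without an Input overlap, the highest fold was 6.01, at chr10:25268529-25269199, with a pileup of 84.0 reads over a background of 13.1. The nearest peak of the 3 excluding lists was one of Pol2, 9.42 kb away. It overlapped 10 of the 12 other acetylations, all but H3K9ac and H3K14ac, the strongest of which were H3K36ac (fold 8.50), H3K56ac (6.68), H3K79ac (5.47) and H3K18ac (5.26), together with 5 constitutive heterochromatin lists at folds of 1.45 to 1.84. At chr8:19280635-19281818 the fold was 5.70 and 10 other acetylations were present, with H3K36ac at 6.92. The peak at chr5:22765309-22766700 had a fold of 5.63 and 8 other acetylations, and lay 46.4 kb from the nearest excluding peak. At chr1:52637688-52638210 the fold was 5.17, with 10 other acetylations led by H3K36ac (8.45) and H3K56ac (7.24). H3K4me1 was missing at all 4, and H3K4me2 was present.

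With an Input overlap, the highest fold of all distal peaks was 7.85, at chr10:44654492-44655864, where the Input peak had a fold of 2.77 and H3K36ac and H3K56ac both reached 11.4. It overlapped 7 other acetylations and, of the constitutive heterochromatin lists, H3K27me1. The peak at chr2:47234690-47235339 had a fold of 6.80, an Input fold of 2.38, 9 other acetylations led by H3K18ac (6.44), and no constitutive heterochromatin list. At chr3:36478222-36478926 the fold was 6.46, with 10 other acetylations and the nearest excluding peak 84.9 kb away. At chr10:38079024-38079564 the fold was 5.85, with 9 other acetylations.

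The largest number of other acetylations without an Input overlap was 11. The highest of these was at chr8:35543839-35544542, with a fold of 4.36 and 60042 bp from the nearest excluding peak, where only H4K20ac was missing and H3K9ac was present at a fold of 2.80. The peak at chr3:44130444-44130970 had a fold of 4.35 and also lacked H4K20ac, and the peak at chr1:37878078-37878519, with a fold of 3.16, lacked H3K9ac. The longest distal peak, chr8:32645968-32648891, measured 2924 bp and had a fold of 3.08, an Input fold of 2.13 and 11 other acetylations.

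Both H3K4me1 and H3K4me2 overlapped the peak of fold 6.80 on chromosome 2 described above. The highest peak with both marks and without an Input overlap, chr10:28026685-28027587, had a fold of 3.17 and lay 2.27 kb from an H3K4me3 peak, with H3K4me1 at 2.12 and H3K4me2 at 1.60. The next, chr8:9608422-9609072, had a fold of 3.04 and lay 3.31 kb from an H3K4me3 peak. All 6 constitutive heterochromatin lists, H3K9me2 included, overlapped 201 distal peaks (5.06% against 0.359% of all H3K27ac peaks). The highest of these was chr3:16701379-16703786, with a fold of 4.80, an Input fold of 2.3 and H3K4ac (2.49) and H3K18ac (2.46) as its only other acetylations. The next was chr10:26882773-26884196, with a fold of 4.73, an Input fold of 2.32 and 6 other acetylations.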

How the data were processed

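The data were 28 peak lists of M82 tomato leaf, 1 library per target. According to the study, the authors used Trimmomatic 0.38 for trimming, Bowtie2 2.3.5 for alignment to the M82 genome, version 1, SAMtools 1.9 for filtering and MACS2 2.2.7.1 for peaks, 17 lists in narrow and 11 in broad format. The limit in peak calling was a MACS2 p-value of 0.05. For its chromatin states the study kept only peaks with a pileup above 36 and a fold above 1.5. A solved pileup above 36 was reached by 24.8% of distal peaks and 80.5% of the other H3K27ac peaks. The deposited columns were a fold, the ratio of pileup to local background, the −log10 of a p-value and of a q-value, and the summit position in narrow lists. A broad peak holds averages over its length. The methods give 2 replicates per condition. Pooling of replicates in a list and the control used in calling are not given in the sources used here. In all, 5 target lists (Pol2, H3K4me1, H3K9ac, H3K36me3, H3K9me2) and the Input lack a replicate tag in the file name.

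Overlaps, distances and tests were computed with Python 3.11.15, numpy 2.4.6, pandas 2.3.3 and scipy 1.17.1, and figures with matplotlib 3.10.9. Every deposited peak entered, an overlap was at least 1 bp, and chromosome length was the largest peak end in any list. Odds ratios had 0.5 added to each cell. The pileup is not among the columns and was solved with the background from the fold and p-value, and it was whole to within 0.02 for 106733 of 106737 H3K27ac peaks. Chromatin classes are those of the study. Permutation tests over lists were planned and run, but their p-values are not given, because the selection itself favours one direction. The functions were tested on simulated data. Regions were named by rule: the 4 highest folds with and the 4 without an Input overlap, the 3 with most acetylations, the longest, 2 with H3K4me1 and H3K4me2, and 2 with most heterochromatin lists. The largest group of peaks was chosen after its values were seen. The selection rule, the lists and the comparisons were chosen with earlier results of these data known. Alternatives were the distance, fold, q-value and pileup limits, the kind of overlap, Input overlap, peak width, and the lists entered.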

Additional observations from a re-analysis of the deposited data

Results flagged for a closer look

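Among the 6 constitutive heterochromatin lists, H3K9me2 stood apart, with a log2 odds ratio of 5.03 for distal over other H3K27ac peaks. The gap to its nearest neighbour was 0.821 of the whole range, above the 95% critical value of 0.625 for 6 values. Chance gives a gap above that critical value in about 1 in 20 groups. The selection shapes these odds ratios, so no conclusion is drawn from the gap. The H3K9me2 list also covered the largest share of the far bases of the 6 (64.3%) and carried no replicate tag, and neither was tested as a cause.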

How the results depend on the processing

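The number of distal peaks depended on the limits: it was 6344 with a distance of 1000 bp, 2554 with 5000 bp, 7465 with a fold above 1.5 in every list, 8868 with a q-value under 0.05 in every list, which thins the lists that exclude peaks, and 987 with an H3K27ac pileup above 36. The share with an Input overlap was 41.0% with the fold limit, 1.76% with the q-value limit, 47.3% with the pileup limit, 16.8% by summit, 10.6% with 50% of the peak covered and, in alternatives chosen after seeing the data, 31.9% in the middle width range and 1.26% with Input peaks of q-value under 0.05. In each case it was below that of the other H3K27ac peaks. The difference between the mean log2 odds ratios of acetylation and constitutive heterochromatin lists was -6.07 in broad lists alone, where 1 acetylation list was left. That against all methylations was -4.83 among broad lists and -1.64 among narrow lists, where H3K4me1 and H3K23me3 were the methylations left. No narrow constitutive heterochromatin list existed for the first comparison. In the other settings tried, both differences kept their direction, with the smallest at -3.04 under the q-value limit. Each setting kept a selection that itself favours this direction, so no conclusion is drawn from its persistence. Under the q-value limit the constitutive heterochromatin lists other than H3K9me2 held only between 10 and 42 peaks each. Single lists that turned were H3K27me2, from -0.10 to 0.0083 (5000 bp), 0.18 (fold limit) and 0.11 (pileup limit), and, in the middle width range (for single lists also chosen after seeing the data), H3K4ac to 0.20 and H3K23me3 to 0.12. H3K36me3, at 0.01, lay between -2.58 and 1.39, and H3K27me2 fell to -5.04 under the q-value limit. No paired analysis was possible because each target had 1 library, and for the same reason no replicate could be left out.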

Other observations

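Beyond the 12 chromosomes, the H3K27ac list had 157 peaks on unplaced sequences, of which 40 had no Pol2, H3K4me3 or H3K27me3 peak within 2000 bp, and 38 of these 40 overlapped an Input peak. On the organelle sequences it had 178 peaks, none of which met the same conditions.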
